A study of Homo sapiens with 8 samples.

Results

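The features described here are the long end of the nuclear tRNA-length entries in a small RNA sequencing experiment on MEC-1, a standard cell line of malignant B cells that stems from chronic lymphocytic leukaemia (CLL). They are all entries whose identifier is a number, or TRNAI followed by a digit, that lie outside the mitochondrial genome and are 84 nt or longer. There are 38 of them among 625 nuclear tRNA-length features and 2709 features in all, and 36 carry a number in place of a symbol. The other 2, TRNAI2 and TRNAI6, carry symbols of isoleucine tRNA genes, and the choice used only identifier, chromosome and length. One group consisted of exosomes, small membrane vesicles taken from the supernatant of MEC-1 cultures (n = 5 libraries). The other consisted of the MEC-1 cells themselves (n = 3 libraries). Both came from 1 line grown in bioreactors with fetal calf serum, which per the labels' protocols had been depleted of its own exosomes except in the upper medium compartment. RNA under 200 nt was sequenced. The labels do not say whether the libraries of a group stem from different cultures, and the p-values below speak only to the spread between these libraries, which may be technical.

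Transfer RNAs are the adapters that carry amino acids to the ribosome, and nuclear tRNA genes are transcribed by RNA polymerase III. Most are too short to reach this length. Genes that do so either hold a short intron, which a dedicated endonuclease cuts out of the precursor before the exons are joined, or encode tRNAs with an extended variable arm, such as those for leucine, serine and selenocysteine. Mature tRNAs and their fragments are a well-known part of the RNA of extracellular vesicles.

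RefSeq's gene table for GRCh38.p14 lists 443 nuclear tRNA genes, of which 32 reach 84 nt: 13 for tyrosine, 6 for leucine, 5 for arginine, 5 for isoleucine, 2 for selenocysteine and 1 for serine. Of the 36 numbered features, 30 have the chromosome and the length of one of these genes. The counts were made on GRCh37 and no identifier matched the table, so no numbered feature is given an amino acid from it.

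The 38 features lie on 12 chromosomes, 25 on the plus and 13 on the minus strand. Chromosome 6 holds 15 of them between 26305718 and 28908934 (GRCh37, as are all positions given here). Chromosome 14 holds 5 within 30.3 kb, between 21121258 and 21151520. Lengths run to 176 nt. TRNAI2 (chromosome 6, 26988114 to 26988226, plus strand, 113 nt) spans feature 23704 with 11 nt to spare upstream and 8 nt downstream. TRNAI6 (chromosome 6, 27599188 to 27599311, plus strand, 124 nt) spans feature 23730 with 12 and 18 nt to spare. Each span had the same count as the feature inside it in all 8 libraries, so they stand for 1 set of reads each, and 36 features remain distinct. No other feature of the table overlapped a long one.

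Libraries held 23353820 to 32436286 counts in exosomes and 25675636 to 57323598 in cells. Levels are given as CPM, read counts divided by library size after TMM scaling, whose factors ran from 0.524 in exosome 5 to 1.46 in exosome 4 and from 0.552 in cell 2 to 1.42 in cell 1. Counts are relative within a library, so fewer vesicles carrying an RNA and fewer copies per vesicle cannot be told apart. MIR21, MIR150, MIR155 and MIR142 were looked for as miRNAs that B cells express, though not B cells alone. MIR21 averaged 11170 ± 4400 CPM in exosomes against 20180 ± 7014 CPM in cells (SD, n = 5 and 3). MIR150 averaged 24.9 ± 20.9 and 8.33 ± 8.43 CPM, and MIR155 and MIR142 were not analysed here. Summed over 5 nuclear RNAs (RN7SK, SNORD101, SNORD48, SNORA64 and SCARNA9), exosome libraries held 527 to 915 CPM and cell libraries 48320 to 72870 CPM, and all 5 were lower in exosomes. Summed over 7 miRNAs of blood and other tissues, exosome libraries held 111 to 276 CPM and cell libraries 64.7 to 67.8 CPM. MIR122, of liver, MIR143, of smooth muscle, and MIR126, of endothelium, were higher in exosomes, 4 were not called, none was at 0, and MIR451A was not analysed here. The part of nuclear RNA or of RNA from other tissues in the results below was not tested.

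Long tRNA-length features made up a far smaller part of the tRNA-length reads of exosomes than of cells. They took 0.278% ± 0.0827 (SD, n = 5) of nuclear tRNA-length counts in exosomes and 3.66% ± 1.51 (SD, n = 3) in cells. The share was 0.379%, 0.159%, 0.327%, 0.274% and 0.252% in exosomes 1 to 5, and 2.73%, 5.41% and 2.85% in cells 1 to 3, so the groups did not overlap. The share of all nuclear tRNA-length features in the total ran the other way, at 8.41% to 25.6% in exosomes and 1.64% to 3.23% in cells. Of the total counts, long features took 0.0491% ± 0.0195 in exosomes and 0.0813% ± 0.0317 in cells, and here the groups overlapped. In raw counts they summed to between 5792 and 17929 in exosome libraries and between 22611 and 59388 in cell libraries. With near-identical features counted once, the share among tRNA-length counts was 1.08% in exosomes and 9.17% in cells. These shares are a description, with no test.

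**Figure D1:**
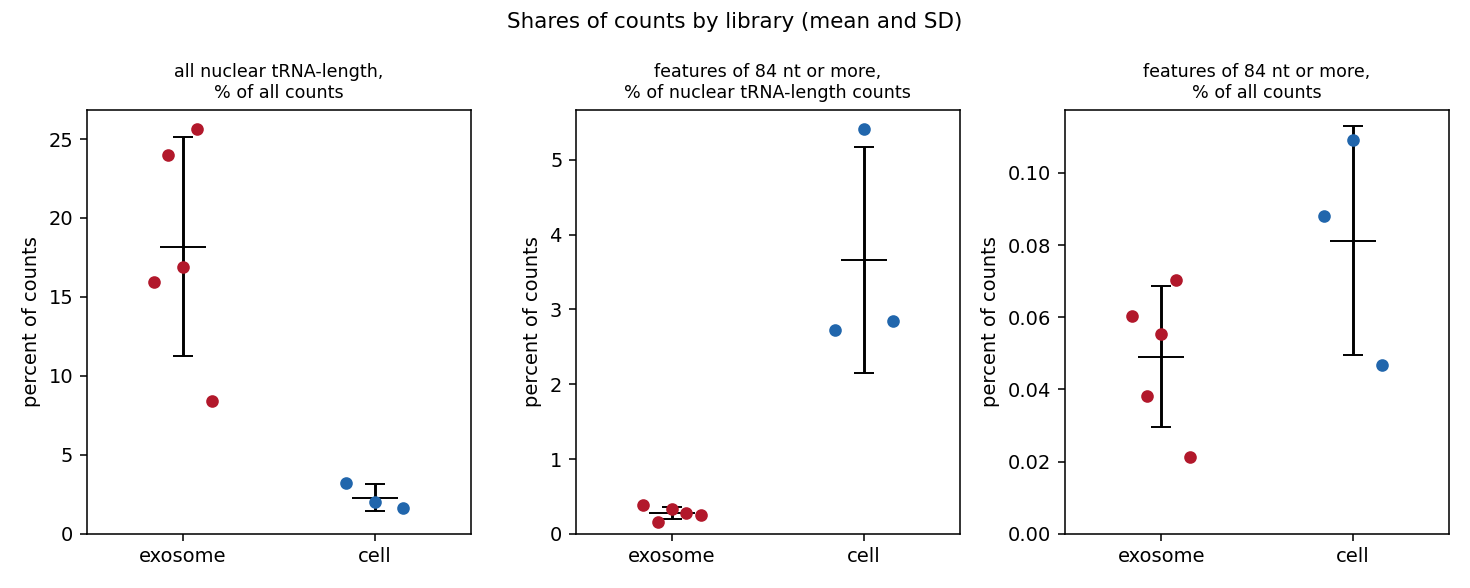
Shares of counts in each library (points; exosome, n = 5, left; cell, n = 3, right), with the mean and SD; the vertical axes are percent of counts and each panel has its own scale. All nuclear tRNA-length features took 8.41% to 25.6% of exosome counts and 1.64% to 3.23% of cell counts, long features took 0.159% to 0.379% and 2.73% to 5.41% of the tRNA-length counts, and their share of all counts overlapped between the groups.

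The groups were set against each other in edgeR's quasi-likelihood test across all 1178 features that passed its filter on low counts, with Benjamini-Hochberg adjustment and calls at an adjusted p under 0.05. Among these, 43.0% were called, 20.7% as higher and 22.3% as lower in exosomes. Of the 38 long features 34 were tested: 8 were higher, 8 lower and 18 not called. The 8 higher calls include both isoleucine spans, so 6 distinct features rose. A share of 47.1% called is near that of all features. The median log2 fold change was -0.61 among long features and -0.09 among all features, but 0.07 among both without cell 2. Features of 80 to 83 nt had 12 higher and 4 lower calls among 44 tested and a median of 1.21, and those under 80 nt had 109 higher and 63 lower calls among 325 tested and a median of 0.47. The difference between these length classes was not tested. With libraries scaled by their total counts alone, the median was -0.06 among long features and 0.19 among all features, and 8 long features were higher and 3 lower. Without cell 2, which held the most counts on long features, 8 were higher and 3 lower. The shares of all features called under these settings are not given here, so the drop in lower calls cannot be set beside them.

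Calls are given here by length band. Both tested features of 84 or 85 nt were not called. Of 10 tested features of 86 to 89 nt, 1 was higher and 1 lower. Of 13 tested features of 90 to 94 nt, 4 were higher and 3 lower. The single tested feature of 95 to 99 nt was not called. All 8 features of 100 nt or more were tested. Of these, 3 were higher, namely both isoleucine spans and feature 23536, 4 were lower, and 1 was not called. The spans hold the same reads as 23704 and 23730, which are already among the higher calls of 90 to 94 nt. Apart from the spans, 23536 was the only higher feature of 100 nt or more. At the threshold itself, feature 23850 (84 nt) averaged 0.980 ± 0.520 CPM in exosomes against 1.53 ± 1.30 CPM in cells. Feature 7571 (85 nt) averaged 7.58 ± 3.91 and 11.8 ± 11.2 CPM. Among 14 features of 83 nt, just outside, those with the highest level per length were 7792 (3.85 ± 1.09 CPM in exosomes and 10.4 ± 8.23 CPM in cells) and 7801 (4.21 ± 1.20 and 9.29 ± 3.70 CPM).

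**Figure D2:**
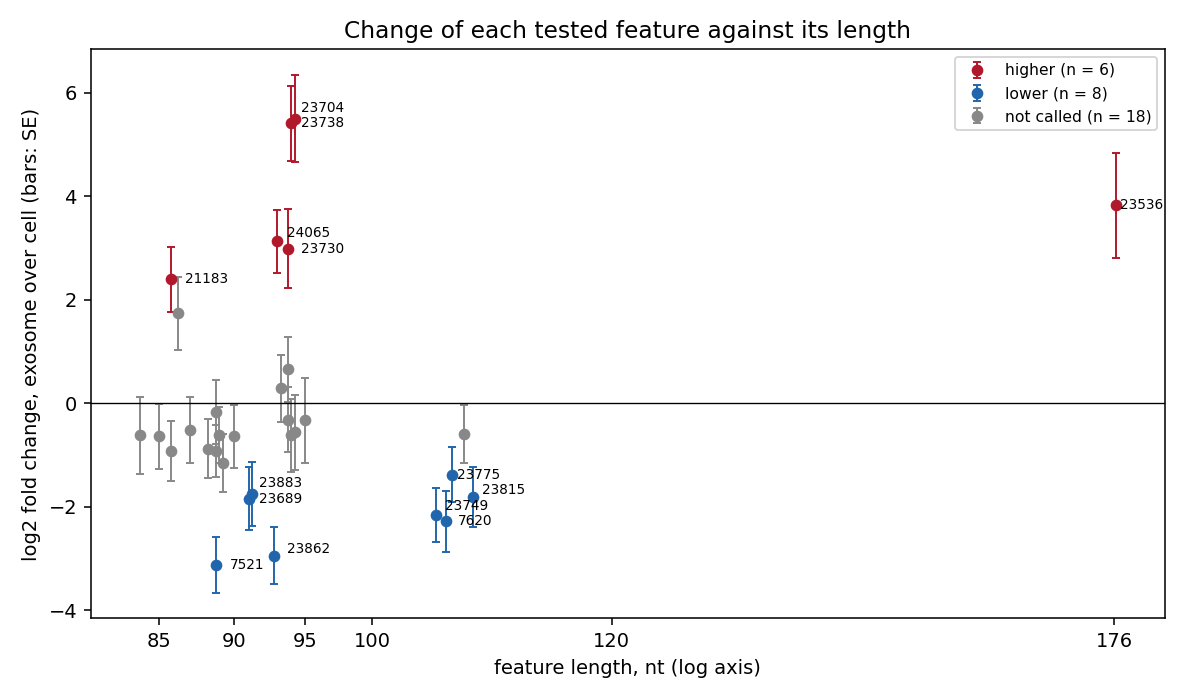
Log2 fold change of exosome over cell (vertical axis; bars are standard errors) against length in nt (horizontal axis, log scale; points of like length are set apart by up to 0.25 nt) for the 32 distinct features tested, with the TRNAI spans left out. The 6 higher features lie at 86, 93, 94 and 176 nt and the 8 lower ones between 89 and 108 nt.

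Both isoleucine entries rose in exosomes, and TRNAI2 had the highest log2 fold change of the 34 long features tested. TRNAI2, with feature 23704 inside it (26988125 to 26988218), held 3.81, 2.68, 3.46, 7.13 and 3.08 CPM in exosomes 1 to 5, and 0.165, 0.0333 and 0.0578 CPM in cells 1 to 3. In raw reads these are 44 to 243 counts per exosome library and 1 to 6 per cell library, so the cell level rests on 10 reads. Every exosome library was above every cell library. The mean was 47.3-fold higher in exosomes (4.03 ± 1.78 against 0.0852 ± 0.0698 CPM), and the fitted log2 fold change was 5.50 (SE 0.84, edgeR adjusted p = 0.000177; 6.21 without cell 1). TRNAI6, with feature 23730 inside it (27599200 to 27599293), held 5.00, 3.14, 4.47, 8.62 and 3.08 CPM in exosomes and 0.905, 0.0998 and 0.809 CPM in cells. The groups were again apart, with cell 2 the lowest library at 3 reads. Its log2 fold change was 2.99 (SE 0.76, edgeR adjusted p = 0.00475; 2.40 without cell 2).

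Another pair of features of nearly the same length rose with them. Feature 23738 (chromosome 6, 28505367 to 28505460, plus strand, 94 nt) held 6.20, 4.42, 5.48, 10.7 and 7.69 CPM in exosomes 1 to 5 and 0.220, 0.166 and 0.0964 CPM in cells 1 to 3. All exosome libraries were far above all cell libraries, which held 5 to 8 reads each. The log2 fold change was 5.41 (SE 0.72, edgeR adjusted p = 6.66e-05). Feature 24065 (chromosome 2, 43037676 to 43037768, plus strand, 93 nt) held 6.60, 4.91, 6.24, 11.3 and 5.94 CPM in exosomes and 0.549, 0.998 and 0.848 CPM in cells. Its groups did not overlap either, and the log2 fold change was 3.13 (SE 0.61, edgeR adjusted p = 0.000925). Exosome 4 was the highest exosome library for 23704, 23730, 23738 and 24065 alike.

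Not every feature of 93 or 94 nt did so. Feature 21185 (chromosome 19, 39902808 to 39902900, minus strand, 93 nt), named here after its values were seen, held 9.42, 6.87, 9.29, 14.7 and 7.90 CPM in exosomes and 4.09, 17.8 and 1.77 CPM in cells. Cell 2 was above every exosome library and the other cell libraries below them. The log2 fold change was 0.29 (SE 0.65, edgeR adjusted p = 0.75).

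The longest feature also rose. Its chromosome, 5, holds no nuclear tRNA gene of 84 nt or more in RefSeq's table, where none is longer than 108 nt. It is thus among the 6 numbered features without a match of chromosome and length there. Feature 23536 (chromosome 5, 151988596 to 151988771, plus strand, 176 nt) held 1.20, 1.17, 0.723, 1.20 and 0.489 CPM in exosomes 1 to 5. In cells it held 0.110, 0 and 0.0771 CPM; the 0 reads of cell 2 allow a level of up to 0.0998 CPM (3 reads, counting error only). The groups did not overlap, at 7 to 41 reads per exosome library and at most 4 per cell library. The log2 fold change was 3.83 (SE 1.01, edgeR adjusted p = 0.00607; 3.23 without cell 2).

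Of the 3 features with the highest level per length, 1 rose. Feature 21183 (chromosome 19, 45981860 to 45981945, minus strand, 86 nt) held 44.7, 77.6, 77.5, 36.2 and 36.6 CPM in exosomes 1 to 5 and 13.6, 3.86 and 13.5 CPM in cells 1 to 3. Exosomes 2 and 3 were about level and above the others, and the lowest exosome library was still above the highest cell library. It was 5.29-fold higher in mean (54.5 ± 21.3 against 10.3 ± 5.59 CPM), with a log2 fold change of 2.40 (SE 0.63, edgeR adjusted p = 0.00584). It took 7.52% to 22.0% of the counts on long features in exosomes and 0.195% to 2.61% in cells. Feature 21175 (chromosome 22, 44546537 to 44546622, plus strand), the other one of the same length that was higher in the mean, held 8.35, 16.3, 11.8, 2.40 and 3.85 CPM in exosomes and 3.59, 0.931 and 3.12 CPM in cells. Exosome 4 lay among the cell libraries, and the log2 fold change of 1.74 did not pass (edgeR adjusted p = 0.055); this feature was named after its values were seen.

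The other 2 of these features were not called higher. Feature 7620 (chromosome 1, 249168054 to 249168159, plus strand, 106 nt), which had the highest level per length, held 97.2, 93.3, 74.7, 79.3 and 127 CPM in exosomes and 238, 976 and 156 CPM in cells. The exosome libraries lay close together and below all cell libraries, which were spread widely. Per 100 nt of length its mean level was 88.97 CPM in exosomes and 431 CPM in cells. The log2 fold change was -2.28 (SE 0.59, edgeR adjusted p = 0.00519), and the call was lost without cell 2 (-1.22, adjusted p = 0.0643). Feature 24062 (chromosome 2, 27273650 to 27273738, plus strand, 89 nt) held 188, 58.6, 88.4, 159 and 124 CPM in exosomes and 168, 493 and 158 CPM in cells. The groups overlapped, its level per 100 nt was 139 CPM in exosomes and 307 CPM in cells, and it was not called (log2 -1.14, SE 0.56, edgeR adjusted p = 0.111; -0.52 without cell 2). Feature 24062 led the long features in exosomes 1, 3 and 4 and in cell 3, and 7620 led in the other 4 libraries. Together with 21183 they held 56.9% to 70.9% of the counts on long features in exosomes and 63.5% to 74.5% in cells.

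**Figure D3:**
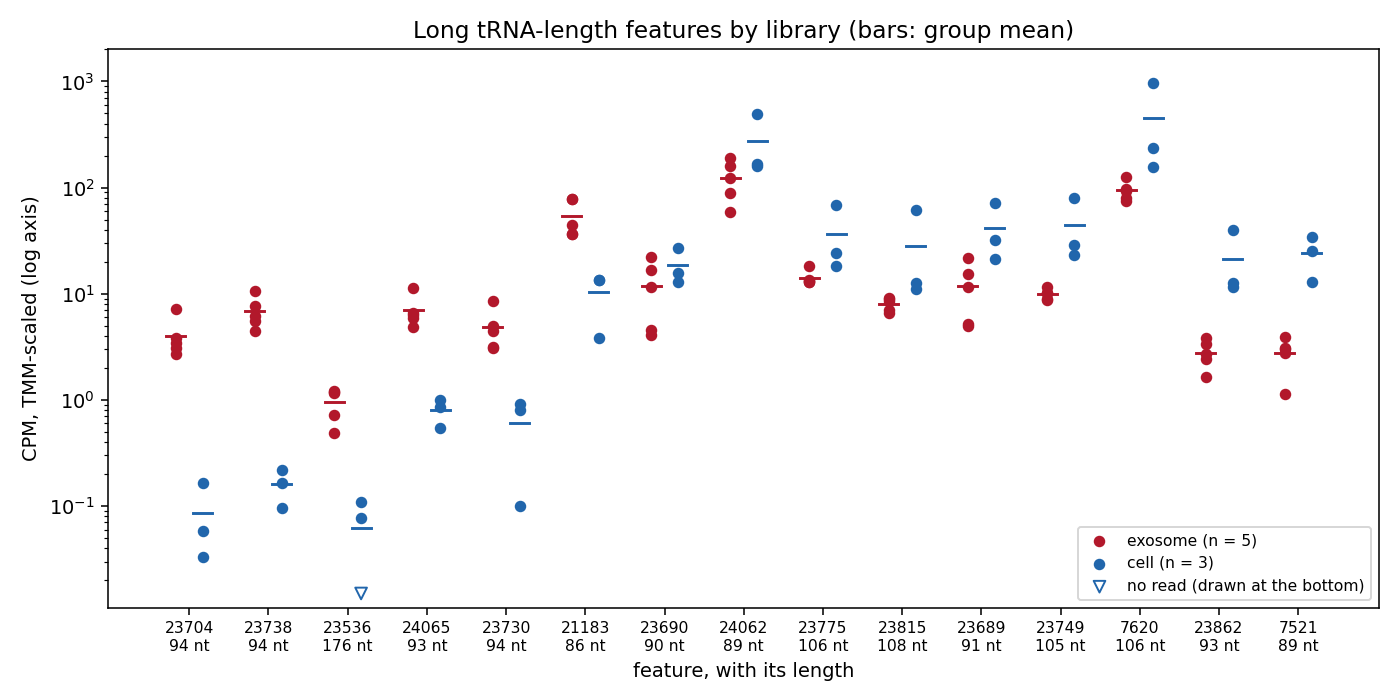
CPM of each named feature in every library (points; log axis; exosome, n = 5, left; cell, n = 3, right), with group means as bars, ordered by log2 fold change; the TRNAI spans are left out because their counts equal those of 23704 and 23730, and the open triangle marks a library with no read. Exosome points lie above all cell points from 23704 to 21183 and below them for 23815, 23749, 7620, 23862 and 7521.

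Among the features that were lower, the lowest fold changes were those of 7521 and 23862. Feature 7521 (chromosome 14, 21151432 to 21151520, plus strand, 89 nt) held 3.10, 1.14, 2.74, 2.99 and 3.92 CPM in exosomes 1 to 5 and 12.9, 25.1 and 34.0 CPM in cells 1 to 3. Every exosome library was below every cell library, by 8.64-fold in the mean. The log2 fold change was -3.11 (SE 0.54, edgeR adjusted p = 0.000419; -2.40 without cell 3). Feature 23862 (chromosome 8, 67025602 to 67025694, plus strand, 93 nt) held 3.35, 1.63, 2.41, 3.81 and 2.73 CPM in exosomes and 11.7, 40.0 and 12.7 CPM in cells. These groups were apart too, and the log2 fold change was -2.94 (SE 0.55, edgeR adjusted p = 0.000744; -2.24 without cell 2).

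The features of 105 to 108 nt on chromosome 6 fell or were not called. Feature 23749 (28908830 to 28908934, plus strand) held 10.2, 8.84, 11.6, 10.1 and 8.67 CPM in exosomes and 22.9, 80.4 and 28.9 CPM in cells, with no overlap. Its log2 fold change was -2.16 (SE 0.53, edgeR adjusted p = 0.00381; -1.48 without cell 2). Feature 23815 (27573417 to 27573524, minus strand) held 8.47, 6.65, 9.20, 8.92 and 6.99 CPM in exosomes and 12.6, 61.2 and 11.1 CPM in cells, also without overlap, though only cell 2 was far above the exosome libraries. Its log2 fold change was -1.81 (edgeR adjusted p = 0.0196); the call was lost without cell 2 (-0.67) or without exosome 1 (-1.70), exosome 3 (-1.46) or exosome 4 (-1.45). Feature 23775 (28864000 to 28864105, minus strand) held 13.1, 12.9, 18.4, 13.0 and 13.4 CPM in exosomes and 24.4, 68.0 and 18.1 CPM in cells. Exosome 3 was above cell 3, and the call (log2 -1.38, edgeR adjusted p = 0.0459) was lost when any library other than cell 1 was left out, at -0.71 without cell 2. Feature 23816 (27570348 to 27570454, minus strand) averaged 4.52 ± 0.567 CPM in exosomes against 6.86 ± 6.04 CPM in cells and was not called.

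Of the other lower calls, feature 23689 (chromosome 6, 26569086 to 26569176, plus strand, 91 nt) held 15.2, 5.13, 11.6, 21.6 and 4.96 CPM in exosomes and 32.0, 72.3 and 21.3 CPM in cells. Exosome 4 reached the level of cell 3. The log2 fold change was -1.84 (edgeR adjusted p = 0.0224), a call lost without cell 2 (-1.30), exosome 2 (-1.63) or exosome 3 (-1.44). Feature 23883 (chromosome 9, 131102355 to 131102445, minus strand, 91 nt), chosen after its values were seen, averaged 3.30 ± 1.12 CPM in exosomes against 11.1 ± 12.2 CPM in cells. Cell 2 held 25.2 CPM, against 4.39 and 3.80 CPM in cells 1 and 3, which the highest exosome library exceeded at 4.52 CPM. The call (log2 -1.75, edgeR adjusted p = 0.0328) was lost without cell 2 (-0.42) or without any 1 exosome library (-1.21 to -1.74). Feature 23690 (chromosome 6, 26575798 to 26575887, plus strand, 90 nt) held 16.8, 4.59, 11.6, 22.2 and 4.12 CPM in exosomes and 26.9, 15.5 and 12.9 CPM in cells; the groups overlapped and it was not called (log2 -0.63, edgeR adjusted p = 0.428).

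Where the groups did not overlap in CPM, the direction was that of the fit. Of the 34 tested features, 8 had every exosome library above every cell library and 6 had every one below. Of all tested features, 41.7% were apart in either direction, 21.6% above and 20.1% below. The 8 above were those called higher, both isoleucine spans included. Among the 6 below, 23691 was not called (log2 -0.91, edgeR adjusted p = 0.154). The groups of 23689, 23883 and 23775, called lower, overlapped. The 18 features that were not called ran from -1.14 to 1.74 on the log2 scale, 15 below 0 and 3 above, and 7 of them changed sign under at least 1 alternative. The 4 features that were not tested, 7628, 23870, 24074 and 23882, held between 1 and 28 reads each over all 8 libraries. Feature 23882 had 1 read, in cell 3, and none in exosomes, and no fold is given for it.

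Of 11 pairs of long features within 10000 nt of each other, nested ones aside, 5 had count ratios that did not overlap between the groups and 6 had ratios that overlapped. The pairs share features, and feature 7535 is in several of the 5 that were apart. No such share for other neighbouring features is given here. Features 23862 and 23863 on chromosome 8 lie 528 nt apart on the same strand. The count of 23862 relative to 23863 was 0.879, 1.63, 0.924, 1.05 and 1.00 in exosomes 1 to 5 and 5.82, 7.23 and 7.24 in cells 1 to 3. The neighbours were thus about equal in exosomes, while 23862 was the higher one in all cell libraries. These ratios do not depend on how libraries are scaled. Feature 23863 was not called (log2 -0.16, edgeR adjusted p = 0.854). On chromosome 6, 23816 lies 2962 nt from 23815 on the same strand, and its count relative to 23815 was 0.493 to 0.678 in exosomes and 0.226 to 0.312 in cells. On chromosome 14, 7521 was the only feature of its cluster that was called. The other 4, all of 94 nt on the minus strand, had log2 fold changes of -0.61 (7534), -0.56 (7533), -0.32 (7532) and 0.66 (7535). The count of 7535 relative to 7534, 4271 nt away, was 2.07 to 7.33 in exosomes and 1.11 to 1.62 in cells. Its ratios to 7533 (1.64 to 7.33 in exosomes and 1.00 to 1.62 in cells) and to 7532 (0.923 to 1.23 and 0.345 to 0.855) were apart as well. For 7533 the groups were barely apart, at 1.64 against 1.62. Both ratios of 7.33 rest on 6 reads of 7534 or 7533 in exosome 5. The ratios among 7534, 7533 and 7532 overlapped between groups, that of 7534 to 7533 at 0.625 to 1.06 in exosomes and 0.700 to 1.00 in cells. So did all 3 ratios among 23689, 23690 and 23691 on chromosome 6: 23689 relative to 23690 was at 0.909 to 1.20 in exosomes and 1.19 to 4.65 in cells. The ratios are given without a test.

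**Figure D4:**
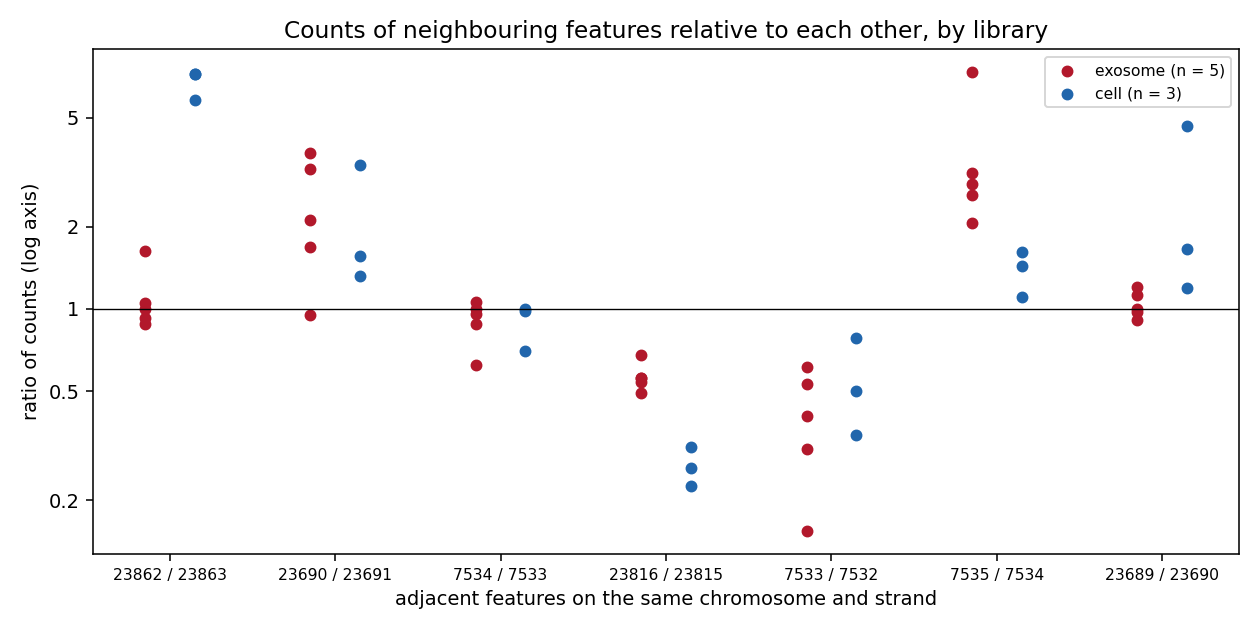
Count of one feature relative to its neighbour on the same chromosome and strand in each library (points; log axis; exosome, n = 5, left; cell, n = 3, right; the line marks equal counts). The ratio of 23862 to 23863 lies at 0.879 to 1.63 in exosomes and at 5.82 to 7.24 in cells, while those of 7534 to 7533 overlap.

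Long features were also set only against other nuclear tRNA-length features, with scaling and adjustment among the 430 of them that passed the filter. Lower calls then became more frequent in each length class. In this fit, chosen after seeing the data, edgeR's quasi-likelihood test called 59.3% of all features, 27.2% as higher and 32.1% as lower. Of the 34 long features 8 were higher and 13 lower, and their share of 61.8% called is near that of all 430. The 8 higher and 8 lower ones of the comparison across all features were among them. The median of the long features was -1.05, against -0.18 for all 430. Features of 80 to 83 nt had 12 higher and 11 lower calls among 49 tested and a median of 0.08. Those under 80 nt had 97 higher and 114 lower calls among 347 tested and a median of -0.16. Feature 24062 was among those lower (log2 -1.54, adjusted p = 0.0147), and so was 23690 (-1.25, adjusted p = 0.043).

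Most of the other RNAs made by RNA polymerase III that were tested rose in exosomes, in the comparison across all features. Of a list of 38, 36 had an entry, 16 of these without a read, and 15 were tested: 11 were higher, 1 lower and 3 not called, beside 43.0% called of all features. The 4 Y RNAs, which bind the Ro60 protein, rose. So did the vault RNAs VTRNA1-1, VTRNA1-2 and VTRNA1-3, VTRNA2-1, and the 3 genes of 7SL, the RNA of the signal recognition particle. Log2 fold changes of these 11 ran from 1.41 (VTRNA2-1) to 5.86 (VTRNA1-3). Without exosome 5, VTRNA1-3 was at 4.35 and VTRNA1-1 at 4.25 (5.24 with all libraries), both still called. Of the 11 higher calls, that of VTRNA2-1 was lost under 8 of 17 alternatives and that of VTRNA1-2 under 5. VTRNA2-1 lost it without cell 1 (1.10), cell 2 (1.35), exosome 1 (1.44) or exosome 5 (1.39), and with total-count scaling, among others. VTRNA1-2 lost it without cell 1 (2.60), cell 3 (3.27) or exosome 5 (2.39). Both lost it in the fits of exosomes 1 to 3 and cells 1 to 3, with and without the replicate block. RN7SK, a nuclear RNA that restrains transcription elongation, was lower (-5.39, edgeR adjusted p = 6.41e-05). The 5S rRNA gene RNA5S9 (-0.36), the minor spliceosome RNA RNU6ATAC (-1.02) and BCYRN1, a cytoplasmic RNA of neurons (2.06, adjusted p = 0.0535), were not called. The listed U6 genes RNU6-1, RNU6-2, RNU6-7, RNU6-8 and RNU6-9 had too few reads to be tested, at 3 to 8 over the exosome libraries. Each had a lower mean in exosomes, from 0.0161 against 0.0274 CPM (RNU6-1) to 0.0164 against 1.15 CPM (RNU6-7). RNU6-1 had 3 reads in each group, and RNU6-7 had 3 in exosomes and 109 in cells. The SD between cell libraries exceeded the cell mean for both (0.0475 and 1.77 CPM).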

How the data were processed

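Small RNA libraries of MEC-1 exosomes (n = 5) and cells (n = 3) were analysed from deposited raw read counts per feature; the layout is that of featureCounts, per the file headers. Per the submitters' processing notes, the build was GRCh37 (hg19, hs37d5) and the tools included DESeq2 1.8.2, STAR and cutadapt 1.1. How reads that map to several places or to overlapping features were counted, and whether strand was used, is not given in the sources used here, so counts of tRNA genes with similar copies are uncertain. Mature tRNAs and fragments, with or without the intron, cannot be told apart in counts per feature. Groups came from the sample titles.

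Exosomes were compared with cells using edgeR 4.0.16 (quasi-likelihood test, TMM, default filter with a minimum of 10 counts, Benjamini-Hochberg adjustment over all tested features) in R 4.3.3. The standard error is the log2 fold change over the square root of F. The code was tested on simulated data. Alternatives were RLE and total-count scaling, DESeq2 1.42.0, no filter, 50 counts in 3 libraries, near-identical features (within 2% or 5 reads in every library, mean of at least 10 counts) counted once, each library left out, and the replicate number as a block. No unmapped sample column was present. Members, lists and tests were chosen with earlier results of these data known. Named features were the 8 with the highest level per length, up to 8 called in each direction with groups apart and, where they were higher, on average 10 counts or more, the 3 longest tested, and TRNAI names. Libraries carried no molecular identifiers, so floors cover counting error only. No sequences are shown.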

Additional observations from a re-analysis of the deposited data

Results flagged for a closer look

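Feature 23704, with the TRNAI2 span that shares its counts, stood out in exosome 4 at 7.13 CPM, far above the other 4 exosome libraries (2.68 to 3.81 CPM). Feature 24065 did so in the same library at 11.3 CPM, against 4.91 to 6.60 CPM in the others. Feature 23775 stood out in exosome 3 at 18.4 CPM, against 12.9 to 13.4 CPM. These are 4 of 19 groups of 5 exosome libraries looked at, and chance marks about 1 group in 20. The groups share libraries, and 23704 and TRNAI2 share reads. Without exosome 4 the log2 fold change was 5.52 for 23704 and 3.24 for 24065.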

How the results depend on the processing

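The count of higher features was 7 to 9 under all 18 alternatives, against 8. The count of lower features, 8 as reported, was 3 with total-count scaling, 5 without a filter, 4 with at least 50 counts in 3 libraries, and 13 among tRNA-length features alone. It was 3 without exosome 5 and cell 2 together, a setting chosen after seeing the data, and 3 to 8 with 1 library left out: 3 without cell 2, 4 without exosome 3, and 5 without exosome 1, 2 or 4. The cause was not tested. Apart from the fit among tRNA-length features alone, the shares of all features called under these alternatives are not given here. Features 23704, 23730, 23738, 24065, 21183, 23536, 7521 and 23862 kept direction and call under each alternative in which they were tested, and no called feature changed sign. Among features not called, 7 changed sign under at least 1 alternative (7571, 23850, 23816, 23863, 7532, 7779 and 21185), none of them with a call; 21185 was at -0.11 among tRNA-length features alone and -0.08 without cell 1. The call of 7620 was lost under 3, that of 23749 under 2 (total-count scaling, -1.58, and the replicate block, -1.81), 23689 under 7, 23815 under 10, 23883 under 12 and 23775 under 15. The share of long features among tRNA-length counts, 3.38 points lower in exosomes (-3.38), was -8.09 with near-identical features counted once and -0.0322 as a share of all counts; it stayed within the spread between libraries with any 1 library left out.

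The labels number exosomes 1 to 3 like cells 1 to 3, and the design text pairs 3 exosome samples with cells without naming them. Deviations from the group means correlated at 0.102, -0.0425 and 0.0875 between same-numbered libraries across features. Exosome 1 correlated best with cell 1 and exosome 3 with cell 3, but exosome 2 also correlated best with cell 3 (0.0551). Correlations this low cannot settle the pairing, and the numbers are not taken as pairs. With the replicate block on those 6 libraries, 9 features were higher and 2 lower; without the block they gave 9 higher and 5 lower. Low counts limit the cell levels of 23704, 23738 and 23536.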
